A study of Mus musculus with 12 samples.

Results

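The 35 genes described here carry glucose from the cell membrane to lactate and through the citric acid cycle: 2 glucose transporters, 2 hexokinases, the enzymes of glycolysis with several of their isoforms, both main lactate dehydrogenase subunits, 3 subunits and 1 kinase of the pyruvate dehydrogenase complex, and 12 enzyme subunits that work in the citric acid cycle. They were chosen by name, and their symbols were matched to the gene IDs of a deposited count table with 78317 rows. All 35 were found; Aldoa matched 2 rows, and the row with the higher counts was used. The table holds RNA-seq of heart ventricle from C57BL/6J mice. One group of 6 mice was sired by males whose hearts had been frozen locally (cryoinjury) on postnatal day 1, and another 6 mice were sired by uninjured males; no offspring heart was itself injured. The labels give the collection age as 3 wpp while calling the offspring adult, and give the sexes only as totals (3 males and 3 females with injured sires, 4 males and 2 females with uninjured sires). Sires, litters and dams are not given per animal, so the p-values below measure only the spread between these mice, some of which may share a sire. The study's labels leave out replicate 16 of the injured-sire group, an outlier by principal components, and the comparison here is therefore of 5 injured-sire with 6 uninjured-sire libraries.

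As background, glycolysis splits glucose into pyruvate, with hexokinase and phosphofructokinase as its main points of control. Pyruvate is then either reduced to lactate by lactate dehydrogenase or moved into mitochondria, where the pyruvate dehydrogenase complex turns it into acetyl-CoA for the citric acid cycle. The adult heart draws most of its energy from fatty acids and uses glucose, lactate and ketone bodies beside them, and it expresses muscle or heart isoforms of many of these enzymes at much higher levels than the widely expressed isoforms.

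Libraries held between 30537315 and 42090257 counts. The 10 ventricular cardiomyocyte markers summed to 90300 to 100300 CPM (counts scaled to a library size of 1e6) in the 5 injured-sire libraries and 85310 to 92810 CPM in the uninjured-sire ones, so the labelled tissue was present in all. All 10 fat markers passed the filter on low counts, and they summed to 426 to 963 CPM in the injured-sire group (median 761) and 222 to 739 CPM in the uninjured-sire group (median 485). Among them, Ucp1, the uncoupling protein of brown fat, ran from 22.2 to 207 CPM and from 1.86 to 133 CPM. Adipoq ran from 15.2 to 37.4 CPM and from 2.61 to 34.3 CPM. Plin5 varied less, from 140 to 232 CPM and from 129 to 184 CPM, and so made up a large part of the lowest sum. Which cells the Plin5 counts came from was not tested, so a low sum cannot be read as an amount of fat. Airway markers, of which 8 of 10 passed, summed to 38.7 to 648 CPM in the injured-sire libraries, with the club cell gene Scgb1a1 at 18.4 to 253 CPM. Among the uninjured-sire libraries they reached 381 and 299 CPM in replicates 18 and 21 and at most 5.86 CPM in the other 4. The skeletal muscle marker Myh4 did not pass the filter, and that list summed to 28.4 to 59.7 CPM against 24.8 to 30.7 CPM. Erythroid markers summed to 2220 to 3016 CPM against 2535 to 3600 CPM, and macrophage markers to 217 to 287 CPM against 258 to 309 CPM. The part of these other cell types in single member values was not tested beyond the fits given below. A score of circadian clock genes (log2 CPM of output and period genes minus activators) had a median of 2.36 in the injured-sire group (1.09 to 2.74) and of 0.46 in the uninjured-sire group (0.14 to 1.85); the ranges overlap and the score was not tested. In tissue RNA such as this, fewer cells of a type and less RNA per cell cannot be told apart.

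Muscle and heart isoforms were among the members with the highest levels, beside enzymes of the citric acid cycle. Between genes, levels are given as TPM (counts per kilobase scaled to a sum of 1e6), computed from the counts and each gene's merged exon length, as the mean over the 11 libraries. Ldhb, the heart-type lactate dehydrogenase subunit, came first at 1756 TPM, followed by Eno3, the muscle enolase, at 1716 TPM, and Idh2, the mitochondrial NADP-dependent isocitrate dehydrogenase, at 1291 TPM. Pgam2, the muscle phosphoglycerate mutase, stood at 1182 TPM and Ogdh, the substrate-binding subunit of the oxoglutarate dehydrogenase complex, at 992 TPM. The lowest was Slc2a1, the basal glucose transporter, at 8.22 TPM, below Aldoa (15.5 TPM), Pgam1 (16.9 TPM), Pfkfb2 (18.7 TPM) and Pfkp (22.7 TPM). Neighbours in this order overlapped in their ranges over libraries: Ldhb ran from 1644 to 1897 TPM and Eno3 from 1523 to 1848 TPM.

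The length used for a gene moved some ranks. With the longest coding transcript in place of the merged exons, Mdh2, the mitochondrial malate dehydrogenase, went from rank 7 to rank 2 and Pgam2 from rank 4 to rank 9, while Ldhb remained first and Slc2a1 last. Within pairs, this took Hk1 from 70.5 to 114 TPM and Hk2 from 111 to 97.0 TPM, which reversed their order. Pfkp went from 22.7 to 59.3 TPM (Pfkm from 803 to 753.5) and Ldha from 445 to 656 TPM (Ldhb from 1756 to 1710). The per-kilobase percentages below use merged exons, so their size depends on this choice. Reads that fit several places were not counted, which lowers genes with near-identical copies. Of the 50-base windows of the main transcript, 82.5% in Gapdh, 72.2% in Eno1, 68.0% in Pgk1 and 41.5% in Pgam1 occurred in transcripts of other genes, mostly pseudogenes; 9 members were above 25% and 18 had no shared window. The Aldoa row shared 55.6% of its exon bases with a second Aldoa entry on the same strand, so its group means of 17.5 and 16.6 CPM cannot be read as the level of muscle aldolase.

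**Figure D1:**
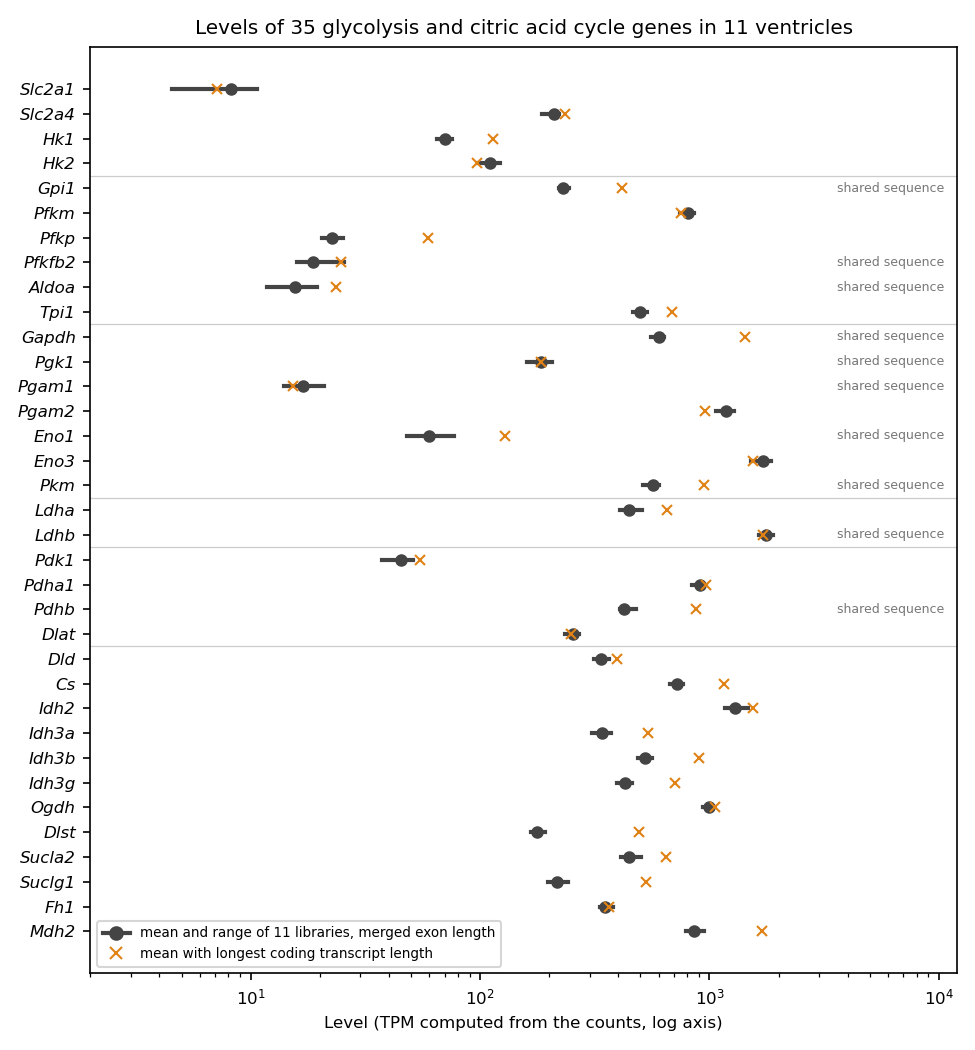
Level of each member on a log axis in TPM, computed from the counts; the line is the range and the dot the mean of the 11 libraries compared, and the cross is the mean when the longest coding transcript gives the length. Ldhb (1756 TPM) and Eno3 (1716 TPM) are highest and Slc2a1 (8.22 TPM) lowest, and genes marked as sharing sequence lose reads to copies or to an overlapping gene.

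No member passed the test between the offspring of injured and of uninjured males. Across all genes, 18 of 17130 genes tested (0.105%) passed an adjusted p of 0.05 in edgeR's quasi-likelihood test, 9 higher (0.0525%) and 9 lower (0.0525%), and 0 of the 35 members did; their smallest adjusted p was 0.445. DESeq2's Wald test also called 0 of the 35. At an unadjusted p below 0.05 stood 3 of the 35 (8.57%), Idh2, Pfkfb2 and Ldhb, all with lower means in the injured-sire group, and this share is close to the 8.96% of all genes tested. By sign alone, 21 members had a fitted log2 fold change above 0 and 14 below (60% against 50.1% of all genes), with a median of 0.0097. In 0 of the 35 did the groups separate without overlap in CPM, as 1.06% of all genes did.

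These genes were measured more closely than most. The 95% confidence interval of a member's log2 fold change had a median half-width of 0.109, against 0.262 over all genes tested. For 31 of the 35, the whole interval lay within a 1.19-fold change in either direction (0.25 on the log2 scale), which held for 29.9% of all genes; the exceptions were Slc2a1, Pfkfb2, Aldoa and Eno1. All 35 intervals lay within a 1.41-fold change (0.5 on the log2 scale), against 58.5% of all genes. Within groups, the coefficient of variation of a member had a median of 5.53%, and it was above 10% in 5: Slc2a1 (21.9%), Aldoa (17.1%), Eno1 (16.6%), Pgam1 (13.5%) and Pfkfb2 (13.4%). With the clock score as a covariate, 31 members had a fold change above 0 and 4 below (49.8% of all genes were above 0), and the median was 0.10. In that fit 5 of 35 members (14.3%) had an unadjusted p below 0.05, all 5 higher, beside 5.47% of all genes, and again none passed the adjusted threshold. The clock score was itself mostly higher with injured sires (median 2.36 against 0.46). A fit with this covariate, here and below, therefore cannot cleanly tell the score from the sire group, and no conclusion is drawn from its values.

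**Figure D2:**
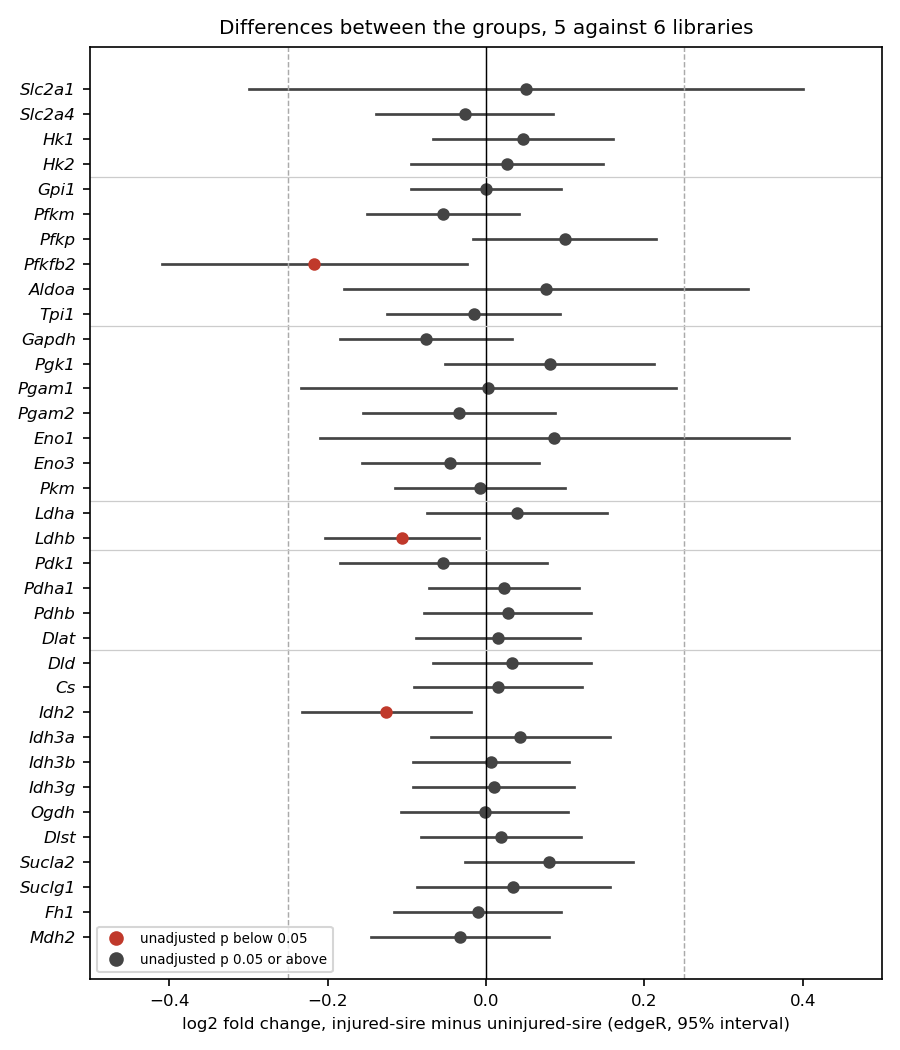
Fitted log2 fold change (injured-sire minus uninjured-sire, 5 against 6 libraries) of each member with its 95% confidence interval; dashed lines mark 0.25 in either direction. Red dots are the 3 members with an unadjusted p below 0.05 (Idh2, Pfkfb2 and Ldhb), and 31 of the 35 intervals lie between the dashed lines.

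Genes of glucose entry and trapping differed by less than the spread between libraries. Slc2a4, the insulin-responsive glucose transporter of muscle, was at 266, 278, 276, 273 and 273 CPM in injured-sire replicates 12, 13, 14, 15 and 17, and between 243 and 295 CPM (median 285) in the uninjured-sire libraries. Slc2a1 was at 10.2, 9.30, 10.8, 11.2 and 13.8 CPM in the same replicates, against 5.96 to 13.4 CPM (median 11.2). For both transporters the injured-sire values fell inside or near the wider uninjured-sire range, whose low end was replicate 22 in each case. Per kilobase, Slc2a1 stood at 3.33% to 5.02% of Slc2a4 in the injured-sire group and at 2.44% to 4.63% in the uninjured-sire group, a difference of 0.11 ± 0.166 (SE) in log2 (exact permutation test, two-sided, p = 0.584). With the clock score as a covariate the log2 fold change of Slc2a1 went from 0.050 to 0.62 (edgeR adjusted p = 0.811) and the fitted difference between the transporters from 0.077 to 0.55.

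Of the hexokinases, which phosphorylate glucose and so hold it in the cell, Hk1 is the widely expressed form and Hk2 the insulin-responsive muscle form. Hk1 was at 241, 205, 229, 239 and 239 CPM with injured sires and at 208 to 235 CPM (median 224) with uninjured sires. Hk2 was at 244, 225, 254, 263 and 270 CPM against 234 to 273 CPM (median 239). The groups overlapped in both genes, with injured-sire replicate 13 lowest in each. Per kilobase of merged exon, Hk1 was 61.9% to 69.0% of Hk2 in the injured-sire group and 56.6% to 69.7% in the other. The log2 difference was 0.019 ± 0.053 (SE; exact permutation p = 0.736). With the longest coding transcript as the length, Hk1 was the higher of the pair (114 against 97.0 TPM), so which form leads is not settled here.

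In the upper part of glycolysis, 3 of 6 members had a fold change above 0 and 3 below, none called. Pfkfb2, the heart form of the bifunctional enzyme that makes and removes the main activator of phosphofructokinase (chromosome 1, 130616919 to 130656990 in GRCm39), was at 43.1, 47.6, 44.5, 56.5 and 43.5 CPM in injured-sire replicates 12, 13, 14, 15 and 17. The uninjured-sire libraries ran from 46.5 to 69.9 CPM with a median of 52.7. Injured-sire replicates 12, 14 and 17 were below every uninjured-sire library, replicate 15 was above 5 of them, and uninjured-sire replicate 20 was far above the rest. The fitted log2 fold change was -0.22 ± 0.092 (SE; edgeR adjusted p = 0.483), and it was -0.13 with the airway and fat marker scores as covariates and also -0.13 without uninjured-sire replicate 20. Gpi1 (glucose-6-phosphate isomerase), Tpi1 (triosephosphate isomerase) and Aldoa had fold changes of 2e-04, -0.016 and 0.076 in log2.

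The phosphofructokinase pair was the isoform balance that separated the groups. Pfkm encodes the muscle subunit of this rate-setting enzyme (chromosome 15, 97990470 to 98030332, plus strand) and Pfkp the platelet-type subunit (chromosome 13, 6629804 to 6698813, minus strand). Pfkm was at 996, 971, 964, 958 and 1059 CPM with injured sires and at 998 to 1086 CPM (median 1017) with uninjured sires. Pfkp was at 127, 112, 118, 112 and 126 CPM against 103 to 118 CPM (median 111). A further subunit outside the pair, Pfkl, was at 125 to 149 CPM against 111 to 144 CPM, with a log2 fold change of 0.024 (edgeR adjusted p = 0.961). The balance below leaves Pfkl out, so it does not describe the whole mix of subunits. Each gene by itself overlapped between the groups and did not pass the test, with log2 fold changes of -0.055 ± 0.0462 for Pfkm and 0.10 ± 0.0561 for Pfkp (SE; edgeR adjusted p = 0.8 and 0.64).

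Taken as a ratio within each library, which does not depend on library scaling, Pfkp per kilobase was 3.17%, 2.86%, 3.04%, 2.91% and 2.96% of Pfkm in injured-sire replicates 12, 13, 14, 15 and 17. In the uninjured-sire libraries it was 2.51% to 2.83% with a median of 2.69%. All 5 injured-sire values were above all 6 uninjured-sire values. The log2 ratio was -5.065 ± 0.057 (SD, n = 5) against -5.218 ± 0.059 (SD, n = 6), a difference of 0.15 ± 0.035 (SE). The two-sided exact permutation p was 0.00433, the smallest that 462 splits can give, and 0.026 after adjustment over the 6 balances. The 6 pairs were chosen with earlier results of these data known, and the adjustment does not cover that choice. How often other gene pairs separate the groups in this way was not tested. Replicate 16 stood apart at 2.45%, below every other library, and with it included the difference was 0.11 with an adjusted p of 0.299, so the result rests on leaving out that library as the labels do. Pfkm shared 10.2% of its exon bases with an overlapping gene on the same strand, and 17.1% of Pfkp windows occurred in another gene.

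In the lower part of glycolysis, 3 of 7 members had a fold change above 0 and 4 below, none called. Gapdh, which oxidises glyceraldehyde-3-phosphate, was at 890, 903, 878, 981 and 920 CPM in injured-sire replicates 12, 13, 14, 15 and 17, against 854 to 1025 CPM (median 966). Pgk1, the first step that makes ATP (chromosome X), was at 143, 171, 150, 172 and 170 CPM against 134 to 167 CPM (median 153). The groups overlapped in both, and the log2 fold changes of -0.076 ± 0.0525 for Gapdh and 0.080 ± 0.0637 for Pgk1 had opposite signs (SE; edgeR adjusted p = 0.731 and 0.781). Pkm, the pyruvate kinase that ends glycolysis, had a log2 fold change of -0.0082.

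For phosphoglycerate mutase and enolase, the counts of the muscle forms were far above those of the widely expressed forms. Reads that fit several places were not counted, which lowers Pgam1 (41.5% of windows shared) and Eno1 (72.2%) but not Pgam2 and Eno3 (0%). The percentages given for these 2 pairs can therefore be too low, by an amount that was not measured. Pgam2 was at 359, 381, 343, 376 and 389 CPM with injured sires and 336 to 433 CPM (median 378) with uninjured sires, and the widely expressed Pgam1 was at 10.3, 13.1, 10.3, 15.5 and 14.03 CPM against 11.4 to 14.2 CPM (median 12.6). Pgam1 was 1.22% to 1.75% of Pgam2 per kilobase in the injured-sire group and 1.27% to 1.59% in the other, with a log2 difference of 0.018 ± 0.105 (SE; exact permutation p = 0.853). The injured-sire libraries lay on both sides of the uninjured-sire range, with replicates 12 and 14 lowest and replicate 15 highest.

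Eno3 was at 1078, 1111, 1034, 1120 and 1181 CPM in the injured-sire group and between 989 and 1202 CPM (median 1165) in the uninjured-sire group. Eno1, the widely expressed enolase, was at 97.2, 134, 113, 155 and 124 CPM against 98.0 to 143 CPM (median 115). Eno1 had the wider spread, from the lowest value in injured-sire replicate 12 to the highest in replicate 15, and the 2 groups covered nearly the same range. Eno1 per kilobase was 2.91% to 4.48% of Eno3 against 2.73% to 4.05%, a log2 difference of 0.13 ± 0.131 (SE; exact permutation p = 0.355).

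Lactate dehydrogenase, a tetramer of A and B subunits in any mix, was the other balance that passed the test. Ldhb (chromosome 6, 142435975 to 142453683, minus strand) was at 963, 996, 940, 1034 and 1053 CPM in injured-sire replicates 12, 13, 14, 15 and 17, and at 1030 to 1110 CPM (median 1078) in the uninjured-sire libraries. Ldha, the subunit typical of skeletal muscle and glycolytic tissue (chromosome 7, 46490899 to 46505051, plus strand), was at 512, 557, 540, 625 and 577 CPM against 511 to 587 CPM (median 553). For Ldhb, injured-sire replicates 12, 13 and 14 were below every uninjured-sire library, while Ldha overlapped throughout. By themselves the log2 fold changes were -0.11 ± 0.0469 for Ldhb (edgeR adjusted p = 0.499) and 0.038 ± 0.0548 for Ldha (edgeR adjusted p = 0.898), SE in both. For Ldhb it was -0.053 with replicate 16 included and 0.0 with the clock score as a covariate.

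Per kilobase and within each library, Ldha was 25.2%, 26.6%, 27.2%, 28.7% and 26.0% of Ldhb in injured-sire replicates 12, 13, 14, 15 and 17, and 21.9% to 25.3% (median 24.5%) in the uninjured-sire libraries. The 2 groups overlapped only by injured-sire replicate 12, which lay below uninjured-sire replicate 18; the other 4 injured-sire libraries were above all 6. The log2 ratio was -1.904 ± 0.071 (SD, n = 5) against -2.048 ± 0.077 (SD, n = 6), a difference of 0.14 ± 0.045 (SE), with an exact two-sided permutation p of 0.00866 and 0.026 after adjustment over the 6 balances. Here too, the adjustment does not cover the choice of pairs, which was made with earlier results of these data known. Replicate 16, at 25.3%, lay where the groups overlap. Its log2 ratio of -1.981 was above injured-sire replicate 12 (-1.988) and just below uninjured-sire replicate 18 (-1.98), so inside the uninjured-sire range. With replicate 16 included, the difference kept an adjusted p below the threshold. Leaving out injured-sire replicate 13, 14, 15 or 17 gave an adjusted p of 0.0571 for this balance and for that of Pfkp to Pfkm, with differences of 0.12 to 0.17.

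The upstream sequences of the pair are shown because their balance is one of the 2 that passed the test. They are the 250 bases before the annotated start, written 5′ to 3′ on the gene's strand, from RefSeq on GRCm38.p6, a different build from the counted annotation, at chr7:46845554-46845803 on the plus strand for Ldha (1 of its 2 listed starts) and chr6:142507958-142508207 on the minus strand for Ldhb. Capitals mark the letters ACGTG, the core of the hypoxia-response element, on either strand; these include the E-box CACGTG, which contains it.
Ldha: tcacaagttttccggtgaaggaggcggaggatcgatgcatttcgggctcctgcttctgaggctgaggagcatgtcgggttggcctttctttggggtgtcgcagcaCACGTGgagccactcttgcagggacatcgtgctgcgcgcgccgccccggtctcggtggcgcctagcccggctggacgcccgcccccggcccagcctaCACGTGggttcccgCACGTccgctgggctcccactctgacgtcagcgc
Ldhb: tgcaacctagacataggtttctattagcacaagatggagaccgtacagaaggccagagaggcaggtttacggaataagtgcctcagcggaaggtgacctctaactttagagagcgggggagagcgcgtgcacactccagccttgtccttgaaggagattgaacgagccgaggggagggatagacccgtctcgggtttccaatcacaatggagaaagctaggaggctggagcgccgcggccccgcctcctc

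The Ldha window holds 3 runs of capitals, 2 of them the E-box, and the Ldhb window holds none. The window of the other Ldha start, further downstream, holds none either, so the contrast applies to the start shown, which was chosen for its matches. Of the 33 members in the sequence table, 12 (36.4%) had ACGTG on either strand in at least 1 window, against 18.5% of 27025 genes; they were Aldoa, Hk2, Idh3g, Ldha, Ogdh, Pdhb, Pfkfb2, Pfkm, Pgam1, Pgk1, Pkm and Slc2a1. The E-box was present in 4 members (Ldha, Ogdh, Pfkfb2 and Pfkm; 12.1% against 6.9%) and the GC box GGGCGG in 21 (63.6% against 35.4%). The TATA box TATAAA was in none of the 33, against 14.3% of genes. The estrogen-related receptor site AAGGTCA was in Eno1 only (3.0% against 4.7%). Member windows were richer in G and C (median 60.4% against 52.4%) and in CpG (median 14 against 6 per window), and the shares were not adjusted for this. Members also have more listed starts (51 windows for 33 genes, against 32851 for 27025), which raises a share counted over any window; by window, ACGTG was in 39.2% against 16.6%, the E-box in 11.8% against 6.0% and the GC box in 47.1% against 32.7%. A match describes letters and does not show binding.

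**Figure D3:**
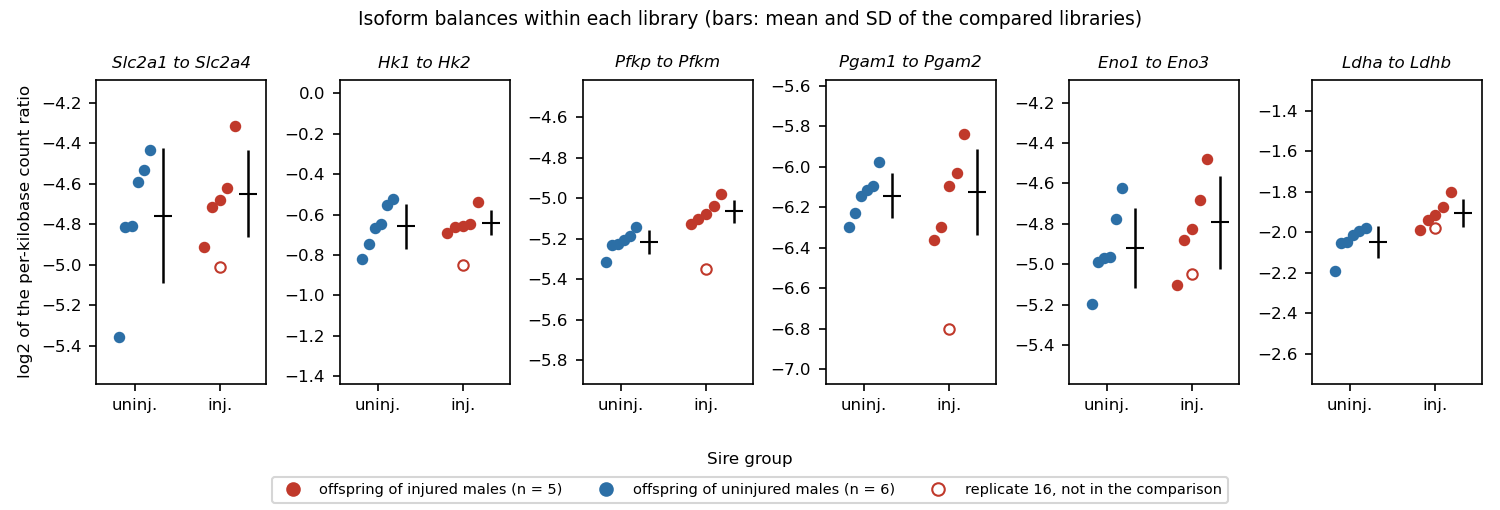
Log2 of the per-kilobase count ratio of the lower to the higher isoform (by merged exon length) of 6 pairs in each library, with axes of equal length. Bars show mean and SD of the compared libraries and the open circle is replicate 16. In Pfkp to Pfkm the 5 injured-sire libraries lie above all 6 uninjured-sire ones, in Ldha to Ldhb 4 of 5 do, and the other 4 pairs overlap.

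Fat markers varied with some of these balances from library to library. Over the 11 libraries, the log2 ratio of Eno1 to Eno3 rose with the log2 summed fat markers (Pearson r = 0.874, adjusted permutation p = 0.0164; Spearman rho = 0.891, adjusted permutation p = 0.0168), and so did Ldha to Ldhb (r = 0.825, adjusted permutation p = 0.0223; rho = 0.873, adjusted permutation p = 0.0201). Without uninjured-sire replicates 19 and 20, the 2 libraries farthest from the median of the fat markers, r was 0.861 for Eno1 to Eno3 and 0.731 for Ldha to Ldhb. After centring each group on its own mean, r was 0.874 and 0.775. Among single genes, Eno1 passed by Pearson's r (0.801, adjusted permutation p = 0.0487) but not by Spearman's rho (0.727, adjusted permutation p = 0.147). Pfkp to Pfkm did not pass (r = 0.309 with adjusted permutation p = 0.621, rho = 0.409 with adjusted permutation p = 0.588, r = -0.215 after centring). Pfkm alone had r = -0.746 (adjusted permutation p = 0.0892) and rho = -0.8 (adjusted permutation p = 0.0618), neither passing. For Pfkp alone r was -0.132, and -0.573 after centring. With 11 libraries, a coefficient that does not pass cannot show that a relation is absent. The relation was examined after the data had been seen, for 41 measures (the 35 genes and 6 balances), and all p-values are adjusted over them.

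With the airway and fat marker scores as covariates in the fit, the difference between the fitted log2 fold changes of Ldha and Ldhb went from 0.15 to 0.097, that of Eno1 and Eno3 from 0.13 to 0.021, and that of Pfkp and Pfkm from 0.15 to 0.14. With the clock score as covariate these were 0.10, 0.033 and 0.21. Among the 7 libraries with more than 30 CPM of airway markers, 5 injured-sire and 2 uninjured-sire (replicates 18 and 21), the difference was 0.12 for Pfkp to Pfkm and 0.11 for Ldha to Ldhb. There, 2 uninjured-sire libraries cannot give an exact p below 0.0952, and the 4 libraries under 30 CPM are all uninjured-sire, so no comparison can be made among them.

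**Figure D4:**
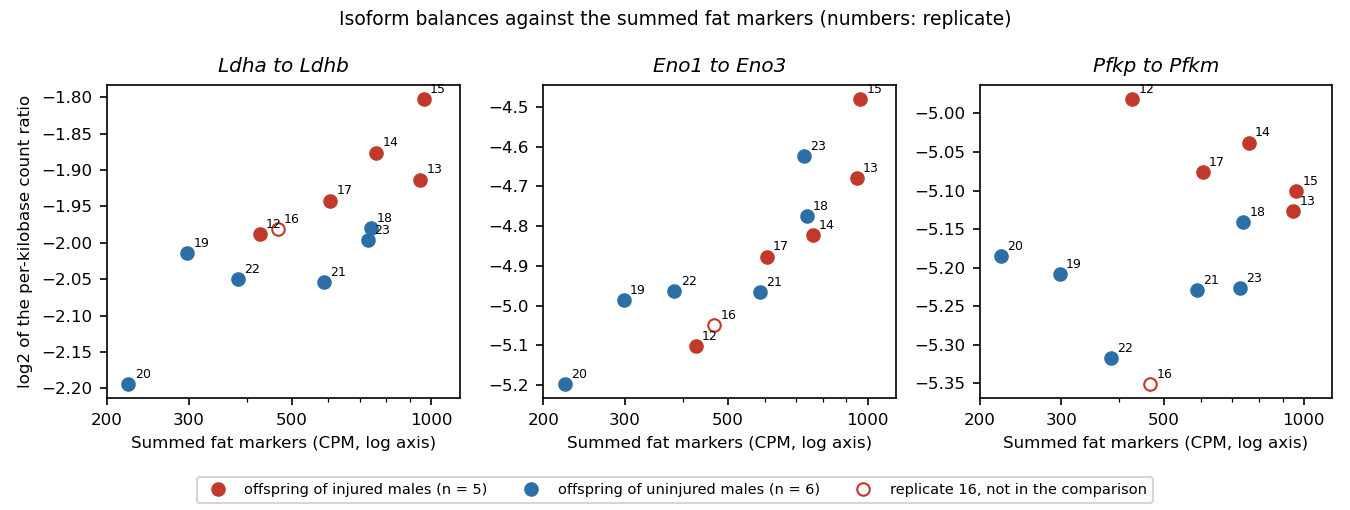
Log2 per-kilobase ratio of 3 isoform pairs (vertical axes) against the summed fat markers in CPM (log axis) in each library, numbered by replicate; the open circle is replicate 16, which entered no correlation. Ldha to Ldhb (r = 0.825) and Eno1 to Eno3 (r = 0.874) rise with the fat markers, and the relation of Pfkp to Pfkm (r = 0.309) did not pass the test.

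At the gate between glycolysis and the citric acid cycle, all 4 members had fold changes between -0.054 and 0.028 in log2, none called. Pdha1, the alpha subunit of the decarboxylating enzyme of the pyruvate dehydrogenase complex (chromosome X), was at 1315, 1316, 1205, 1280 and 1336 CPM in injured-sire replicates 12, 13, 14, 15 and 17, and at 1230 to 1326 CPM (median 1262) in the uninjured-sire group. Pdk1, a kinase that switches the complex off, was at 139, 135, 129, 119 and 128 CPM against 118 to 149 CPM (median 137). Both overlapped, and the log2 fold changes were 0.022 ± 0.0455 and -0.054 ± 0.0631 (SE; edgeR adjusted p = 0.934 and 0.866). Pdhb and Dlat, the beta subunit and the acetyl-transferring core, had log2 fold changes of 0.028 and 0.014.

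Among the 12 citric acid cycle members, 8 had a log2 fold change above 0 and 4 below, from -0.13 to 0.079, and none was called. Idh2 (chromosome 7, 79744594 to 79765140) had the lowest p among the members: it was at 1196, 1195, 1157, 1129 and 1317 CPM with injured sires and at 1233 to 1422 CPM (median 1308) with uninjured sires. Injured-sire replicates 12, 13, 14 and 15 were below every uninjured-sire library and replicate 17 was inside their range. The log2 fold change was -0.13 ± 0.0516 (SE; 1199 ± 71.9 CPM, n = 5, against 1308 ± 67.1 CPM, n = 6, SD), with an edgeR adjusted p of 0.445, and it was -0.082 with replicate 16 included. The 3 subunits of the NAD-dependent isocitrate dehydrogenase were within 1 SE of 0: Idh3a had 0.043 ± 0.0548, Idh3b 0.0065 ± 0.0473 and Idh3g 0.0097 ± 0.0489 (SE). Idh3b and Idh3g changed sign in 7 and 5 of 21 alternative fits.

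Sucla2, the ATP-forming beta subunit of succinyl-CoA ligase, was at 643, 744, 654, 716 and 694 CPM in the injured-sire group against 612 to 694 CPM (median 660), and its log2 fold change was 0.079 ± 0.0511 (SE; adjusted p = 0.705 in edgeR). Ogdh was at 2130, 1949, 2051, 1931 and 2121 CPM against 1885 to 2203 CPM (median 2054), and its log2 fold change was -0.0020 ± 0.0504. Mdh2 was at 1106, 1146, 1081, 1119 and 1248 CPM against 1051 to 1281 CPM (median 1178), with a log2 fold change of -0.033 ± 0.0539. The groups overlapped in all 3. The other members of the cycle were also near 0: Cs (citrate synthase) had 0.015, Dld (the shared dihydrolipoyl dehydrogenase) 0.032, Dlst (the core of the oxoglutarate dehydrogenase complex) 0.019, Suclg1 (the alpha subunit of succinyl-CoA ligase) 0.034 and Fh1 (fumarase) -0.011 in log2.

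Shifts between single libraries were shared by many members and cut across the groups. As the median over the 35 genes of log2 CPM minus the mean of the 11 libraries, uninjured-sire replicate 22 was lowest at -0.082, with 29 of 35 members below the mean. Injured-sire replicates 14 (-0.059, with 29 below) and 12 (-0.056, with 28 below) came next, and the highest were injured-sire replicate 17 (0.069, with 30 above) and uninjured-sire replicate 18 (0.067, with 27 above). Each group thus held libraries near both ends. Uninjured-sire replicate 22 also had the lowest sum of cardiomyocyte markers (85310 CPM) and injured-sire replicate 17 the highest (100300 CPM). Injured-sire replicate 12 (92600 CPM) and uninjured-sire replicate 18 (90300 CPM) did not follow that order. The values are scaled by TMM factors of 0.966 to 1.028. The part of cell content or scaling in these small shifts was not tested. Glycolysis and citric acid cycle members did not always shift alike: in injured-sire replicate 15 the median was 0.074 for glycolysis and -0.020 for the cycle.

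**Figure D5:**
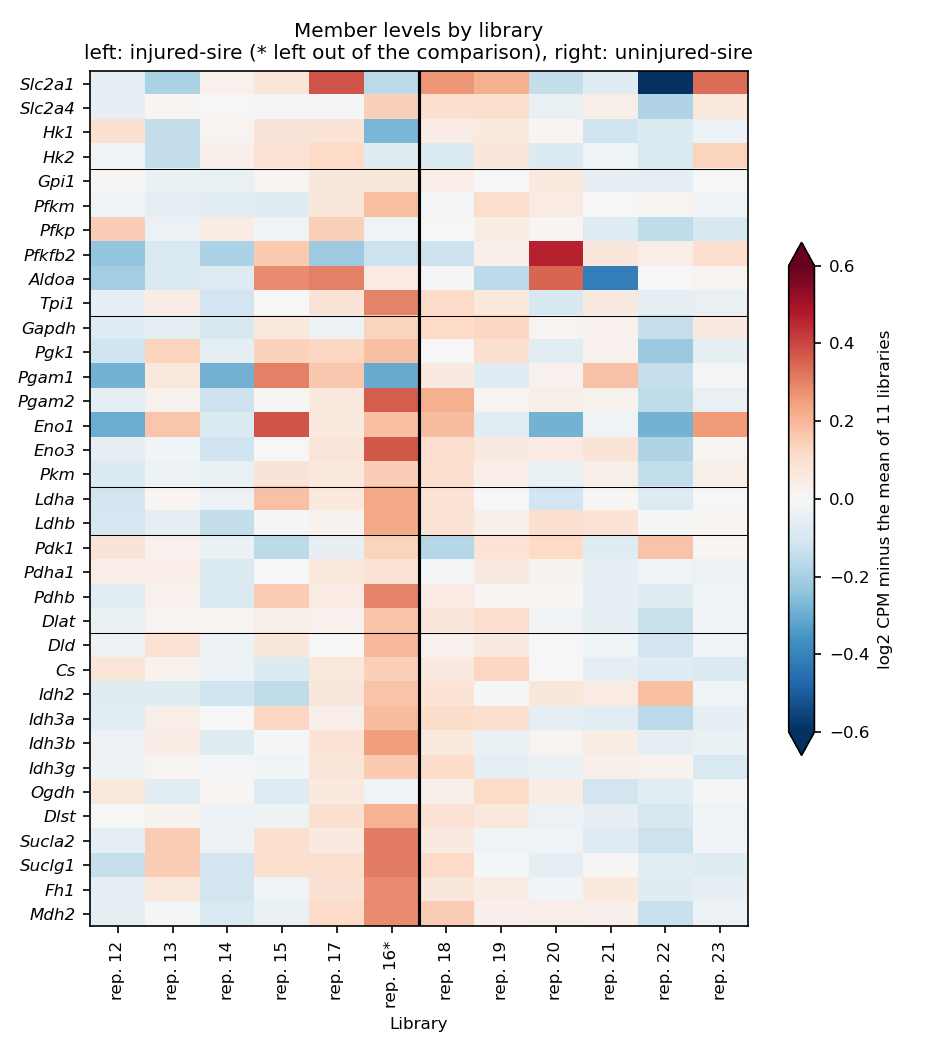
Log2 CPM of each member (rows, by pathway step) in each library (columns) minus its mean over the 11 libraries compared; the black line separates injured-sire from uninjured-sire libraries, and replicate 16, marked with an asterisk, is left out of the mean. Uninjured-sire replicate 22 is low in 29 of 35 members and injured-sire replicate 17 high in 30, so rows do not split by group.

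Other genes of these pathways gave no call either. They came from lists made with earlier results of these data known, so the shares of each list given below are descriptive only. Of 21 further glycolysis and transport genes tested (29 listed), 13 had a log2 fold change above 0 and 8 below, and 3 had an unadjusted p below 0.05 (14.3%, beside 8.96% of all genes). The nearest to the threshold was Slc16a1, the monocarboxylate transporter that moves lactate and pyruvate across the membrane. It was at 261, 238, 227, 217 and 246 CPM in injured-sire replicates 12, 13, 14, 15 and 17, and at 187 to 206 CPM (median 200.2) in the uninjured-sire libraries. All 5 were above all 6, and the log2 fold change was 0.26 ± 0.0540 (SE; 238 ± 17.01 against 199 ± 7.32 CPM, SD; edgeR adjusted p = 0.0585). It passed the threshold in 5 of 21 alternative fits, with adjusted p-values of 0.033 without a scaling factor, 0.0134 without a filter, 0.0461 with a filter of 1 CPM, 0.0424 without injured-sire replicate 15 and 0.0014 in DESeq2's Wald test; over all 21, the log2 fold change lay between 0.22 and 0.29 and the adjusted p reached 0.602 with the clock score.

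Pfkfb3, the inducible form of the enzyme that Pfkfb2 also encodes, had a log2 fold change of 0.56 with an adjusted p of 0.541 in edgeR, and of 0.037 with the clock score as a covariate. In the list around pyruvate dehydrogenase, 3 of 10 genes were above 0 and 7 below, and 1 (10%) had an unadjusted p below 0.05. Pdk4, the main kinase of this complex under fasting, was at 2003, 1968, 1299, 1318 and 2143 CPM with injured sires against 2002 to 3250 CPM (median 2363) with uninjured sires. Injured-sire replicates 12 and 17 lay at the low end of the uninjured-sire range, replicates 13, 14 and 15 below it, and the log2 fold change was -0.51 ± 0.192 (SE; edgeR adjusted p = 0.463). It was -0.080 with the clock score as a covariate and -0.28 with replicate 16 included (3579 CPM; edgeR adjusted p = 0.861). Pdk2 had -0.061 and Pdpr, a regulator of the phosphatase that switches the complex on, 0.14; the pyruvate carriers Mpc1 and Mpc2 and the binding protein Pdhx had -0.052, -0.013 and -0.0010.

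Of 19 further citric acid cycle and shuttle genes, 9 were above 0 and 10 below, and 0 had an unadjusted p below 0.05. Ogdhl, Aco1 and Me1 had log2 fold changes of -0.17, 0.095 and 0.11 (edgeR adjusted p of 0.61, 0.693 and 0.712), and Sdha (succinate dehydrogenase) of 0.013. Among 13 glycogen genes tested, 4 were above 0 and 9 below, and 2 (15.4%) had an unadjusted p below 0.05; Phkg1, the catalytic subunit of phosphorylase kinase, had -0.27 ± 0.0790, Ppp1r3c, a glycogen-targeting subunit of protein phosphatase, -0.30 ± 0.101 and Pygb, a glycogen phosphorylase, -0.10 ± 0.0574 (SE; edgeR adjusted p = 0.243, 0.341 and 0.629). Phkg1 and Ppp1r3c passed in 1 of 21 alternative fits, that without a filter (adjusted p = 0.0174 and 0.00353).

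Of 19 regulators of these pathways, 10 were above 0 and 9 below; 5 had an unadjusted p below 0.05 (26.3%, beside 8.96% of all genes) and 0 were called. Ppargc1b, a coactivator of mitochondrial genes, had 0.30 ± 0.0834, the glucose-responsive factor Mlxipl 0.23 ± 0.085 and Klf15 0.20 ± 0.0792 in log2 (SE; edgeR adjusted p = 0.2, 0.394 and 0.417). Txnip, an inhibitor of glucose uptake, was at 908, 709, 581, 390 and 468 CPM in injured-sire replicates 12, 13, 14, 15 and 17 against 724 to 1038 CPM (median 865). Injured-sire replicates 13, 14, 15 and 17 were below every uninjured-sire library and replicate 12 was inside their range, and the log2 fold change of -0.51 ± 0.209 had an edgeR adjusted p of 0.511.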

How the data were processed

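The authors deposited 1 table of raw read counts per Ensembl gene, without normalization. Per the file headers it was made with featureCounts 2.1.1 on the Ensembl 114 annotation of GRCm39, with strand setting 2; no paired-end option was set and reads mapping to several places were not counted. The submitters' processing notes name FastQC 0.11.9, MultiQC 1.12, STAR 2.7.10a, Subread 2.0.3, R 4.4.0, DESeq2 1.44.0 and Salmon 1.9.0; the Subread version differs from that in the header. Read length is not given in the sources used here. Another 11 sample columns match no sample described and were not used. Of the gene IDs, 51487 carried a GENCODE M21 symbol, and these held 99.3% of counts.

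In R 4.3.3, edgeR 4.0.16 was run on the counts. Its filterByExpr (at least 10 counts, total 15) left 17130 genes, scaled by TMM. The two-sided quasi-likelihood test (robust) was adjusted by Benjamini-Hochberg over these genes, at a threshold of 0.05. CPM are TMM-scaled. Isoform balances are log2 ratios of counts (0.5 added) per kilobase of merged exon, compared by exact two-sided permutation in Python 3.11.15. Correlations used 100000 permutations. Shared sequence was counted as identical 50-base windows of GENCODE M21 transcripts. Only the edgeR fit without covariates was tried on simulated counts with known fold changes. The balances, correlations and covariate fits were not.

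The members, lists and isoform pairs were chosen with earlier results of these data known. Values per library are given for the genes of the balances, the 6 other members with the smallest p, the 3 other members with the highest level, and some others. Named from each further list were the 3 genes with the smallest p. Pdk4, Pdk2, Sdha, Mpc1, Mpc2, Pdhx and Txnip were named whatever their values, and Pfkl was added as a further phosphofructokinase subunit. Some genes that this rule takes are not reported here. Alternatives were all 12 libraries, each library left out, other scalings, filters and covariates (sex-linked, airway and fat, clock) and DESeq2 1.42.0. Chosen after seeing the data were the correlation with fat markers, the split by airway markers, the transcript length for levels, the balances from fitted fold changes and the other scalings for replicate 16.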

Additional observations from a re-analysis of the deposited data

Results flagged for a closer look

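In 7 of 124 groups of values checked, a single library stood apart from the others of its group by Dixon's criterion, where about 1 in 20, or 6.2, would be flagged by chance. Pfkfb2 was at 69.9 CPM in uninjured-sire replicate 20, against 46.5 to 54.4 CPM in the other 5. Eno3 was at 989 CPM in uninjured-sire replicate 22, against 1137 to 1202 CPM. Dlat was at 456 CPM in injured-sire replicate 12, against 474 to 479 CPM. Aco1 was at 62.8 CPM in injured-sire replicate 13, against 56.6 to 57.9 CPM, and at 62.0 CPM in uninjured-sire replicate 23, against 51.8 to 54.0 CPM. The log2 ratio of Hk1 to Hk2 was -0.536 in injured-sire replicate 12, against -0.692 to -0.649. The log2 ratio of Ldha to Ldhb was -2.194 in uninjured-sire replicate 20, against -2.054 to -1.98; that library also had the lowest sum of fat markers (222 CPM).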

How the results depend on the processing

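Members stayed uncalled throughout: none of 735 fold changes (35 members under 21 alternatives) passed, and the lowest adjusted p was 0.111. The count of all genes called was 18 and depended on the setting, with 236 without a filter (97 higher, 139 lower), 28 with a filter of 1 CPM in 5 libraries (15 higher, 13 lower), 134 in DESeq2's Wald test (72 higher, 62 lower), 0 with the clock score as covariate (edgeR; 937 with an unadjusted p below 0.05), and 8 to 43 with 1 library left out: leaving out injured-sire replicate 12, 13 or 14 gave 28, 8 or 9, and leaving out uninjured-sire replicate 22 or 23 gave 43 or 9. The median member log2 fold change was 0.10 with the clock score. Members with a fold change above 0 numbered 13 to 31 over all alternatives: 31 with the clock score, 27 with all 12 libraries and 13 to 26 with 1 library left out, the lowest without injured-sire replicate 17. Pfkp to Pfkm went from 0.15 to 0.11 with all 12 libraries (adjusted exact permutation p = 0.299) and lay between 0.13 and 0.17 with 1 library left out, Ldha to Ldhb between 0.12 and 0.17. Both missed the threshold at an adjusted p of 0.0571 without injured-sire replicate 13, 14, 15 or 17. With 4 against 6 libraries this is the smallest adjusted p that 1 balance can reach by itself, but a lower value is possible where both balances are low together. Leaving out injured-sire replicate 12 also gives 4 against 6 libraries, and there both passed. Where no cause is shown here, the cause was not tested. No paired analysis was possible because no replicate number occurs in both groups. Signs of the many fold changes near 0 changed with the setting, and no called value changed sign. The interval widths limit what 5 against 6 hearts can show.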

Other observations

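Replicate 16, left out of the comparison, stood above all 11 other libraries in 24 of the 35 members and below them in 2 (Hk1 and Pgam1) in TMM-scaled CPM, with a median log2 difference of 0.16 from the uninjured-sire mean. Scaled by library totals the counts were 13 above and 4 below with a median of 0.056, and by totals without mitochondrial genes 14 above and 3 below with a median of 0.084. It had the highest share of counts from the mitochondrial genome, 20.1%, and 0.947 CPM of airway markers. The muscle isoforms Eno3 (1451 CPM) and Pgam2 (481 CPM) were 0.35 above the uninjured-sire mean in log2, and Sucla2 (830 CPM) and Suclg1 were 0.34 and 0.32 above it. Pdk4 was also highest there, at 3579 CPM against at most 3250 CPM elsewhere.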
